A study of Mus musculus with 8 samples.

Results

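The genes described here are 48 genes of macroautophagy, of the lysosome and of mitophagy, followed in nuclei of mouse gastrocnemius, the large calf muscle. The members were taken from a given list of symbols, which was drawn up with earlier results of these data known. All 48 were found in all 8 count matrices, among 21112 gene symbols common to the matrices after mitochondrially encoded and ribosomal protein genes were set aside. All groups were wild-type C57BL/6 mice. Old muscle came from mice of 20 months and Young muscle from mice of 3 months. Running muscle came from mice that were 11 months old when a training period of 2 months began, and Sedentary muscle from mice of the same starting age that did not train. Each of the 4 groups has 1 library made with the 10x Genomics system (replicate 1) and 1 made with the DNBelab C system of MGI (replicate 2, called the second set). The number and the sex of the animals behind a library are not given in the sources used here, so every p-value below measures only the spread between these libraries.

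Macroautophagy encloses cytoplasm, protein aggregates or organelles in a double membrane, the autophagosome, and delivers them to the lysosome for breakdown. A kinase complex starts the process, a lipid kinase complex marks the membrane, carrier proteins supply lipid, and a conjugation system similar to that of ubiquitin attaches small proteins of the ATG8 family (the LC3 and GABARAP proteins) to the growing membrane. Cargo receptors bind both the cargo and the ATG8 proteins, and mitophagy receptors do the same for damaged mitochondria. In skeletal muscle the pathway is known for clearing damaged mitochondria and contractile proteins, and its regulator TFEB is known to switch on lysosomal genes through a short DNA element with the core CACGTG.

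RefSeq promoter windows (build GRCm38.p6) matched 39 of the 48 members, with 47 windows, and each was searched on both strands over the 250 bases before the annotated start. The palindrome CACGTG was present in the windows of 5 members, Atg3, Atg5, Atg7, Bnip3 and Lamp1, which is 10.6% of the members' windows beside 6.02% of all 32851 windows. The longer palindromic form of this element, known as CLEAR, was in no member's window and in 0.240% of all windows. TGACGTCA was in none and in 1.55%, and the element bound by MEF2 factors in none and in 0.140%. TGACTCA was found for Bag3 alone, beside 4.46% of all windows. The 5 windows with CACGTG are printed to show where the element lies. Atg3, Atg7, Bnip3 and Lamp1 return in the comparisons between nuclear classes below, and Atg5 in that of Running with Sedentary. Each line gives 100 bases, 5′ to 3′ along the gene's strand, with CACGTG in capitals.
Atg3 (chr16:45158715-45158814, plus strand): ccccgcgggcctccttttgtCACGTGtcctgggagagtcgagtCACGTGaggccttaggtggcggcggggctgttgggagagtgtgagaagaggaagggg
Atg5 (chr10:44268239-44268338, plus strand): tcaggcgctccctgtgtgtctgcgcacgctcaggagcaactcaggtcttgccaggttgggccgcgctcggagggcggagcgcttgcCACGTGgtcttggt
Atg7 (chr6:114670944-114671043, plus strand): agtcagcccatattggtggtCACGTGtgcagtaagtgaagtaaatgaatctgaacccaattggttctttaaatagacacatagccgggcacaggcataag
Bnip3 (chr7:138909535-138909634, minus strand): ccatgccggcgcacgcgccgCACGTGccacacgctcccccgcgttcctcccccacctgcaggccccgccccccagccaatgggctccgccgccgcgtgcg
Lamp1 (chr8:13159061-13159160, plus strand): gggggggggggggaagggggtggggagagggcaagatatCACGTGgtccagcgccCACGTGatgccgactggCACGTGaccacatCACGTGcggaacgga
The Lamp1 window held 4 copies of CACGTG and the Atg3 window held 2, while the other three held 1 each. The Atg7 window lies before a start inside the gene, whose GENCODE body begins at base 114643097 of the same chromosome. A match of letters is a description of the sequence and was not tested against binding.

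After the study's own limits on genes and mitochondrial reads per nucleus, 64803 of 65280 nuclei remained. Deposited unique molecular identifiers (UMIs, 1 per captured RNA molecule) summed to between 23390969 and 44454427 per 10x library and to between 4839878 and 9278034 per library of the second set. Pairs of 10x libraries shared between 30 and 46 nuclear barcodes. The second Old library stood apart: 4058 of its 4772 nuclei, or 85.0%, fell into clusters that could not be named, beside 7.71% to 35.7% in the other libraries. Its 5 fibre genes (Ttn, Neb, Ckm, Dmd and Acta1) summed to 29084 CPM (UMIs scaled to the library's total), beside 48505 to 71313 elsewhere. Clusters were named from marker genes, with the members left out of the genes used for clustering, and are written as "X-like". In 3 of the 5 Type IIb-like clusters of the 10x libraries no single one of the 7 Type IIb markers was more than 1 log2 unit above the other nuclei, and the name rests on their mean. In the second set the Type IIb-like clusters had 1 and 2 of the 7 markers past that limit. The Type IIa/IIx-like clusters of that set, with 2184 and 880 nuclei, had 1 and 5 of 6. Free fibre RNA was present throughout: Myh4, the myosin of Type IIb fibres, stood at 1125 to 1949 CPM in endothelial-like nuclei of the 10x libraries, where Type IIb-like nuclei had 3546 to 7769. In the second set Myh4 reached 5063 to 9436 in nuclei named Type IIa/IIx-like, beside 5631 to 12952 in Type IIb-like nuclei. Fewer nuclei of a type and less RNA per nucleus cannot be told apart in sums over all nuclei.

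Nuclear RNA includes intronic reads, so levels of different genes are compared only per kilobase of gene body. Sqstm1, which encodes a cargo receptor, averaged 5.52 CPM per kilobase in the 10x set, and the ATG8 genes Map1lc3a and Gabarap averaged 5.27 and 4.94. Map1lc3a, the shortest member at 1.78 kb, averaged 32.3 per kilobase in the second set and Sqstm1 18.5, both several times their 10x level.

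**Figure D1:**
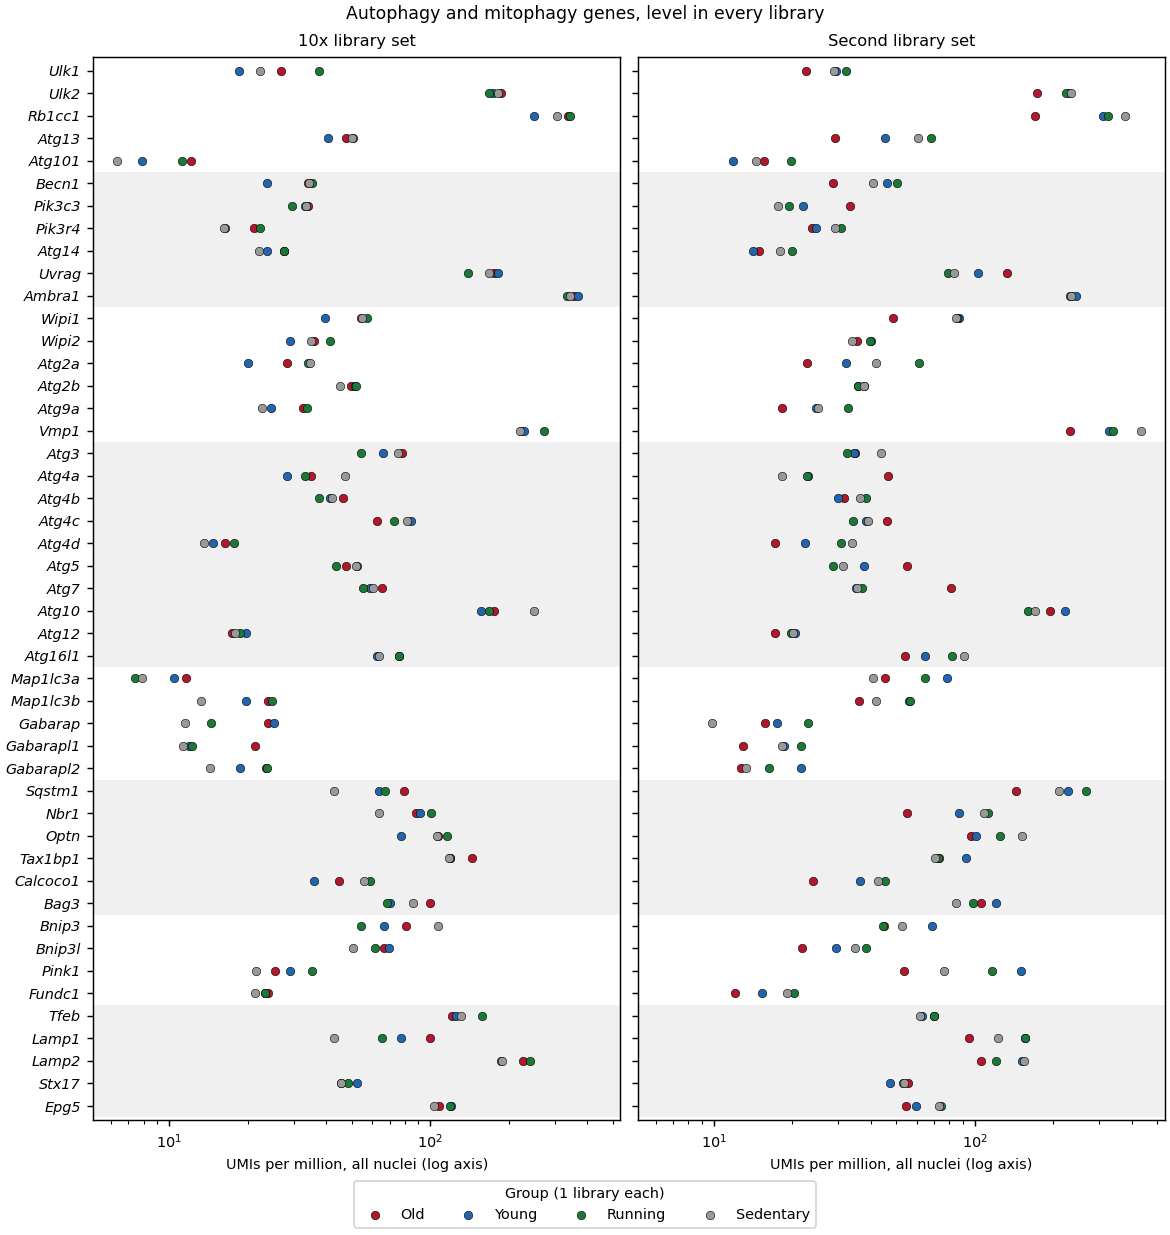
CPM of 47 members over all retained nuclei, on a log axis, in the 10x set (left) and the second set (right); each point is 1 library, coloured by group, and grey bands separate the functional groups. Vmp1 holds the highest single value shown, 432 in a library of the second set.

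Within the initiation machinery, Ulk1, the kinase that starts autophagosome formation, stood at 26.8, 18.6, 37.5 and 22.3 CPM in Old, Young, Running and Sedentary of the 10x set and at 22.6, 29.3, 32.1 and 28.9 in the second set. Becn1, a scaffold of the lipid kinase complex, stood at 34.1, 23.7, 35.3 and 34.4 in the 10x set and at 28.7, 46.0, 50.5 and 40.7 in the second. For both genes Old was above Young in the first set and below Young in the second, whereas Running was above Sedentary in both. Among the ATG8 genes, Map1lc3a stood at 11.7, 10.5, 7.44 and 7.86 in the 10x set and at 45.4, 78.3, 64.6 and 41.0 in the second. Map1lc3b stood at 24.0, 19.8, 24.7 and 13.3 and then at 36.1, 56.2, 56.6 and 42.0. Gabarapl1 stood at 21.4, 11.9, 12.2 and 11.4 and then at 12.9, 18.7, 21.6 and 18.2. All 3 ATG8 genes had Old above Young in the 10x set and below it in the second set.

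Sqstm1 encodes p62, the receptor that brings ubiquitin-tagged cargo to the autophagosome. It stood at 79.3, 63.9, 67.2 and 42.7 CPM in Old, Young, Running and Sedentary of the 10x set, and at 143, 227, 267 and 210.3 in the second set. Bag3, a co-chaperone that directs damaged contractile proteins to autophagy, stood at 100.1, 70.4, 68.1 and 86.3 and then at 106, 121, 98.8 and 84.7. The values of Running and Sedentary were in opposite order in the 2 sets for Bag3. Of the mitophagy genes, Bnip3, a receptor on the outer mitochondrial membrane, stood at 80.8, 66.8, 54.2 and 107.5 and then at 45.0, 68.8, 44.7 and 52.7. Pink1, a kinase that accumulates on damaged mitochondria, stood at 25.4, 29.1, 35.3 and 21.5 and then at 53.5, 151, 117 and 76.5. Pink1 was the member of these with Old below Young and Running above Sedentary in both sets. Tfeb stood at 121, 125, 158 and 132 in the 10x set and at 70.0, 62.8, 69.5 and 61.5 in the second. Lamp2, a protein of the lysosomal membrane, stood at 226, 187, 241 and 188 and then at 106, 151, 121 and 154.

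In Old against Young muscle over all nuclei, no member passed the test. edgeR's quasi-likelihood test called 0 of 48 members at a Benjamini-Hochberg adjusted p of 0.05 and 0 of all 20324 genes tested (0%). DESeq2 also called 0 members, and at an unadjusted p under 0.05 edgeR gave 1 member, Pink1, beside 557 of 20324 genes. Pink1 had a log2 fold change of -1.19 (SE 0.47, adjusted p = 0.693) and had the lower level in Old in each set. The fit placed 45 members lower in Old and 3 higher, with a median of -0.43 beside 0.19 for all genes. That direction rested on the second Old library. Without it the median was -0.025, with 20 members higher and 28 lower, and without the first Old library it was -1.04. The split of signs also depended on scaling: with library totals as the only scaling the median was -0.061, with 21 higher and 27 lower. The median of all genes went from 0.19 to 0.61, and the members' median was below it under both scalings. With nuclei of named classes alone the median was -0.22, with 9 higher and 39 lower, and with the same weight for each class it was -0.075, with 22 higher and 26 lower.

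Set by set in CPM, the members did not keep 1 direction. In the 10x set 33 of 48 were higher in Old than in Young, with a median log2 difference of 0.22 beside 0.24 for all genes. In the second set 35 of 48 were lower in Old, with a median of -0.30 beside 0.87 for all genes. Only 9 members, or 18.8%, were lower in both sets, where 10.5% of all genes were, and 7, or 14.6%, were higher in both, where 51.2% of all genes were. The members lower in both sets with the smallest p included Pink1, Vmp1, Atg12 and Epg5. Vmp1, a membrane protein needed for autophagosome formation, stood at 222 CPM in Old and 229 in Young of the 10x set and at 232 and 328 in the second, with a fitted log2 fold change of -0.63 (SE 0.43). The small conjugated protein gene Atg12 stood at 17.5 and 19.7 and then at 17.2 and 20.6, with -0.60 (SE 0.42). The fusion factor gene Epg5 stood at 108 and 120.05 and then at 54.5 and 59.3, with -0.52 (SE 0.39). None of these passed the test.

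Members higher in Old in both sets and in the fit were Atg7, Atg4a and Atg101. Atg7, the enzyme that activates the ATG8 proteins for conjugation, stood at 65.2 in Old and 58.7 in Young of the 10x set and at 80.9 and 35.1 in the second, with a fitted log2 fold change of 0.27 (SE 0.36). Atg4a, a protease that trims ATG8 proteins, stood at 34.9 and 28.3 and then at 46.4 and 22.9, with 0.26 (SE 0.41). Atg101, a subunit of the kinase complex, stood at 12.2 and 7.91 and then at 15.5 and 11.9, with 0.15 (SE 0.52). None passed the test. All 9 of 9 macrophage markers were detected in every library and none was at 0. Their summed level was 870 and 479 CPM in the Old libraries and 643 and 213 in the Young libraries. The 9 adipocyte markers, also all detected, summed to 984 and 874 in Old and to 682 and 328 in Young. Markers of fibro-adipogenic progenitors summed to 3167 and 677 in Old and to 2543 and 517 in Young. Those of endothelial cells summed to 319 and 498 and to 221 and 302. The 7 Type IIb markers were lower in Old, at 14277 and 13481 beside 17919 and 25141. Type IIa/IIx and slow fibre markers were higher in Old in the 10x set and lower in the second. Atg7 was at its highest in macrophage-like nuclei (below). The part of these cells and fibres in the members' differences was not tested.

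**Figure D2:**
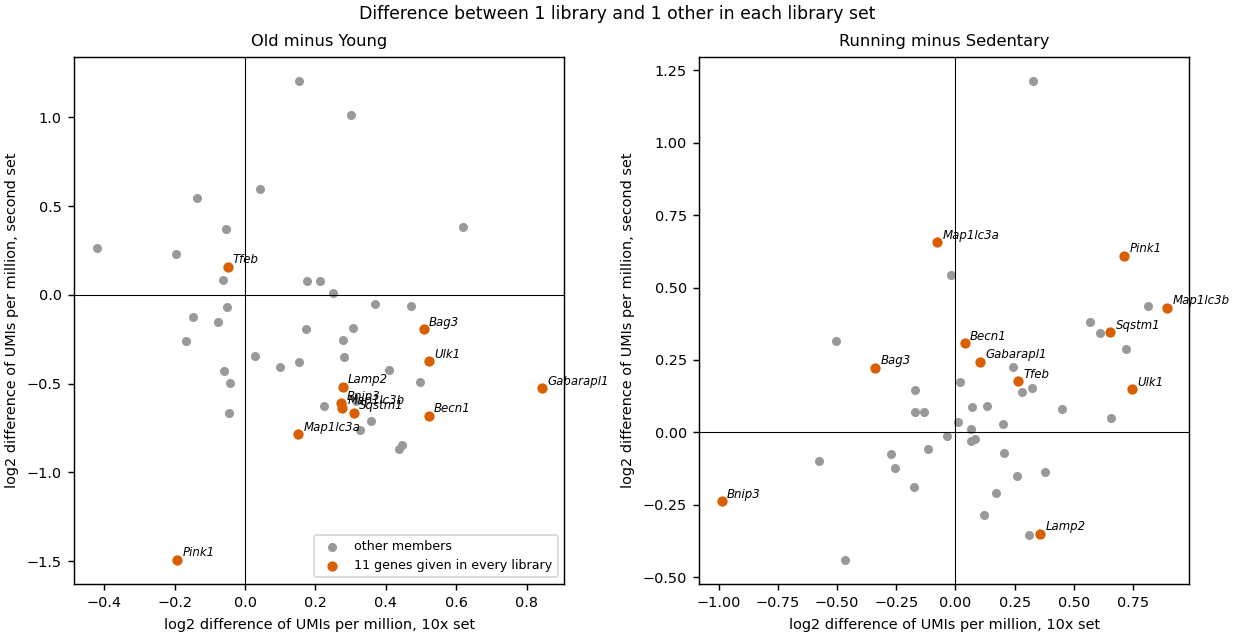
log2 difference of CPM between the 2 groups for the 10x libraries (horizontal axis) against the second set (vertical axis), for Old minus Young (left) and Running minus Sedentary (right); each point is 1 member and orange marks the 11 genes given in every library. In the left panel 32 members have opposite signs in the 2 sets, and in the right panel 23 members are higher in Running in both.

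In Running against Sedentary muscle over all nuclei, no member passed the test either. edgeR called 0 of 48 members and 0 of 20324 genes (0%), and DESeq2 called 0 members. No member had an unadjusted p under 0.05 in edgeR's test, whereas 98 of all genes did. The fit placed 31 members higher in Running and 17 lower, with a median log2 fold change of 0.08 beside -0.04 for all genes. The median went below 0 without the first Sedentary library (-0.13) and without the second Running library (-0.059). In CPM, 23 members (47.9%) were higher in Running in both sets, where 26.2% of all genes were, and 8 (16.7%) were lower in both, where 25.7% of all genes were. All 5 ATG8 genes were higher in Running in the fit, with a median of 0.52, although Map1lc3a was lower in Running in the 10x set. Of the 10 conjugation genes, 7 were lower and 3 higher, with a median of -0.071. The difference between these groups of genes was not tested.

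The members higher in Running in both sets with the smallest p were Gabarap, Pink1, Map1lc3b, Atg101 and Gabarapl2. Gabarap stood at 14.5 in Running and 11.5 in Sedentary of the 10x set and at 23.0 and 9.86 in the second, with a fitted log2 fold change of 0.87 (SE 0.53). Pink1 had 0.68 (SE 0.46), Map1lc3b 0.65 (SE 0.48) and Atg101 0.62 (SE 0.52). Gabarapl2, another ATG8 gene, stood at 23.7 and 14.3 and then at 16.3 and 13.3, with 0.52 (SE 0.50). The members lower in both sets with the smallest p were Bnip3, Atg3, Atg10, Atg5 and Atg4c, of which all but Bnip3 act in conjugation. Bnip3 had -0.59 (SE 0.42). Atg3, the enzyme that passes ATG8 proteins to lipid, stood at 54.6 and 75.4 and then at 32.4 and 44.0, with -0.44 (SE 0.39). Atg10, which passes ATG12 to ATG5, had -0.33 (SE 0.36), Atg5 itself -0.17 (SE 0.35) and the protease gene Atg4c -0.16 (SE 0.34). None of the 10 passed the test, since every adjusted p in edgeR's test was 0.99996. All 8 markers of fibro-adipogenic progenitors were detected in every library, and they summed to 2004 and 581 in the Running libraries and to 744 and 516 in the Sedentary libraries. The 6 markers of Type IIa/IIx fibres, also all detected, summed to 2265 and 3032 in Running and to 3158 and 3408 in Sedentary, and the 8 markers of slow fibres to 97.0 and 903 in Running and to 908 and 556 in Sedentary. Atg10 had its highest class mean in Type IIa/IIx-like nuclei. The part of these cells and fibres in the differences was not tested.

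The members' differences went with gene length in both comparisons. Across the 48 members, Spearman's rho between gene length and the Old minus Young difference was -0.35 for the 10x libraries and 0.50 for the second set, beside -0.06 and 0.29 over 18638 genes. For Running minus Sedentary it was -0.50 and -0.57, beside -0.41 and -0.04. These are correlations across genes of the same libraries, which are not independent replicates, and the part of length in the differences was not tested.

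Within nuclear classes the comparisons gave the same count of 0. Only Type IIb-like, Type IIa/IIx-like, myotendinous junction-like and neuromuscular junction-like nuclei had at least 20 nuclei in every library, and the second Old library gave 67, 274, 23 and 22 of them. For Old against Young, edgeR called 0 of 48 members in Type IIb-like nuclei (0.0596% of all genes), 0 of 48 in Type IIa/IIx-like nuclei (0%), 0 of 40 tested in myotendinous junction-like nuclei (0%) and 0 of 31 tested in neuromuscular junction-like nuclei (0.0227%). For Running against Sedentary it called 0 of the same members in each class, where 0%, 0%, 0% and 0.0681% of all genes were called. Leaving out the second Old library, or any other, also gave 0 in every class. The count of all genes called changed between these fits, each of which leaves a group with 1 library, and is not given here. DESeq2 was not run within classes. At an unadjusted p under 0.05 Old against Young gave 3 members, all in the Type IIa/IIx-like class, beside 619 of its 13876 genes. The 3 members were Bag3 with a log2 fold change of 0.62 (SE 0.26), Optn, a receptor for ubiquitin-tagged mitochondria, with 0.61 (SE 0.28), and Pink1 with -0.85 (SE 0.33). For Running against Sedentary there were 4 in Type IIa/IIx-like nuclei, Map1lc3b with 1.13 (SE 0.41), Atg3 with -0.89 (SE 0.37), Atg5 with -0.73 (SE 0.33) and Bnip3 with -0.65 (SE 0.29). In that class 339 of 13876 genes had such a p for this comparison. The junction classes gave 1 member each, Atg13 and Map1lc3a, beside 217 of 5896 genes (myotendinous) and 172 of 4405 (neuromuscular). None of the 9 passed after adjustment, with a smallest adjusted p of 0.9989 in edgeR's test, and they were named after their values were seen.

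Levels of the members were then set side by side across classes. Of the 10 classes present in all 4 10x libraries, adipocyte-like nuclei had the highest mean level of 10 members and macrophage-like nuclei of 8. Macrophage-like nuclei also had the lowest mean of 11 members and fibro-adipogenic progenitor-like nuclei of 9. The same ranks were not counted over all genes, so these counts only describe the members. Wipi1, which reads the lipid mark of the forming autophagosome, was highest in neuromuscular junction-like nuclei. It stood there at 253, 98.7, 213.5 and 181 CPM in Old, Young, Running and Sedentary of the 10x set and at 185, 429, 446 and 695 in the second set. The corresponding values in Type IIb-like nuclei were 49.3, 33.3, 49.4 and 41.4 and then 96.6, 51.6, 68.9 and 64.0, so the classes did not overlap in either set. The values of the second Old library rest on few counts. Its 22 neuromuscular junction-like nuclei held 26993 UMIs of all genes and its 67 Type IIb-like nuclei 72459. Wipi1 was picked here after its values were seen, and the difference was not tested. The share of all genes without overlap was not counted.

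**Figure D3:**
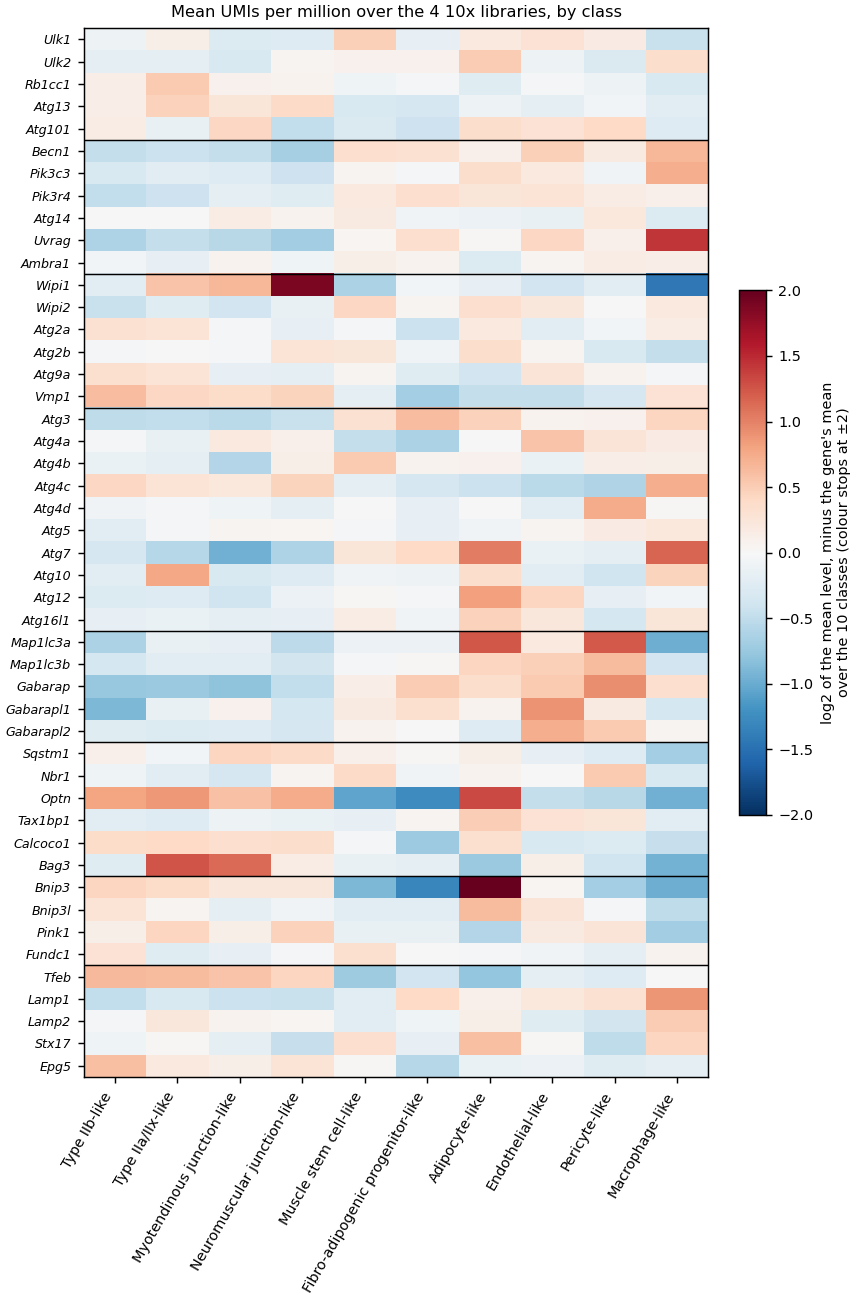
Mean CPM over the 4 10x libraries in 10 classes, as log2 minus the gene's mean over the classes; red is above and blue below that mean, colours stop at ±2, and lines separate the functional groups. Bnip3 is strongest in adipocyte-like nuclei (339), Uvrag in macrophage-like nuclei (528) and Wipi1 in neuromuscular junction-like nuclei (187).

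Type IIb-like nuclei were compared with the mean of endothelial-like and fibro-adipogenic progenitor-like nuclei of the same 4 10x libraries, a comparison of fibres with other cells of the muscle. edgeR with TMM scaling called 30 of 48 members higher, where 33.4% of all genes were, and 6 lower, where 36.5% were. The median was 0.42 beside -0.01 for all genes. The split depended on the scaling. With library totals as the only scaling, 11 members were called higher and 16 lower, where 19.3% and 51.2% of all genes were, and the median of all genes moved to -0.47. Relative to the median of all genes the members' median was 0.43 under both scalings, with 37 members above it under TMM and 36 under library totals. Under both scalings 11 members were called higher, among them Atg13, Atg2a, Atg9a, Vmp1, Atg4c, Optn, Calcoco1, Bnip3, Tfeb and Epg5. Under both, 6 were called lower: Becn1, Uvrag, Atg3, Gabarap, Gabarapl1 and Lamp1.

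The members called higher under both scalings included the cargo receptor gene Optn, membrane supply genes and the mitophagy receptor gene Bnip3. Optn stood at 140.4, 95.9, 127 and 112 CPM in Type IIb-like nuclei of Old, Young, Running and Sedentary, at 62.6, 30.6, 43.1 and 61.5 in endothelial-like nuclei, and at 33.7, 23.3, 32.4 and 26.3 in progenitor-like nuclei. Its log2 fold change was 2.11 (SE 0.12, adjusted p = 3.1e-09). The classes did not overlap for Optn, which was named for its large fold change, and the share of all genes without overlap was not counted. Vmp1 ranged from 266 to 322 in Type IIb-like nuclei and from 108 to 155 in the other classes, with 1.66 (SE 0.11). Bnip3 ranged from 53.9 to 96.3 and from 16.4 to 72.9, with 1.45 (SE 0.14), and its range in endothelial-like nuclei overlapped that in Type IIb-like nuclei. Epg5 ranged from 128 to 144 and from 52.6 to 94.9, with 1.40 (SE 0.10).

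The members lower in Type IIb-like nuclei were 2 ATG8 genes, 2 genes of the lipid kinase complex, a conjugation enzyme and a lysosomal membrane protein. Gabarapl1 ranged from 6.43 to 13.7 in Type IIb-like nuclei and from 15.9 to 48.6 in the other classes, with a log2 fold change of -1.04 (SE 0.20). Gabarap ranged from 7.93 to 16.4 and from 19.2 to 48.6, with -0.76 (SE 0.18). Uvrag, a partner of Becn1 in autophagosome maturation, ranged from 109.5 to 150.3 and from 208 to 292, with -0.53 (SE 0.10). None of these 3 overlapped between the classes. They were named for their large fold changes, and the share of all genes without overlap was not counted. Becn1 ranged from 18.9 to 30.9 and from 31.3 to 78.3, with -0.39 (SE 0.16, adjusted p = 0.038), and lost its call when any 1 library was left out. Atg3 ranged from 44.0 to 65.4 and from 55.9 to 138, with -0.38 (SE 0.12). By function, 5 of 6 membrane supply genes, 4 of 5 kinase complex genes and 4 of 5 lysosome and fusion genes were called higher under TMM. Of 10 conjugation genes 6 were called higher and 1 lower. The lipid kinase complex gave 2 higher and 2 lower of 6, and the cargo receptors 4 higher and 0 lower of 6. Over all genes 33.4% were called higher and 36.5% lower. Under library totals these shares were 19.3% and 51.2%. Membrane supply, kinase complex and lysosome genes then had 3, 1 and 2 higher and 1, 0 and 1 lower. Conjugation, lipid kinase and cargo receptor genes then had 1, 0 and 2 higher and 4, 4 and 1 lower. The mitophagy genes Bnip3l (0.72, SE 0.11), Fundc1 (0.79, SE 0.15) and Pink1 (0.55, SE 0.14) were called higher under TMM and not called under library totals. No ATG8 gene was called higher under TMM or library totals, with 2 of 5 called lower under the first and 5 of 5 under the second.

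**Figure D4:**
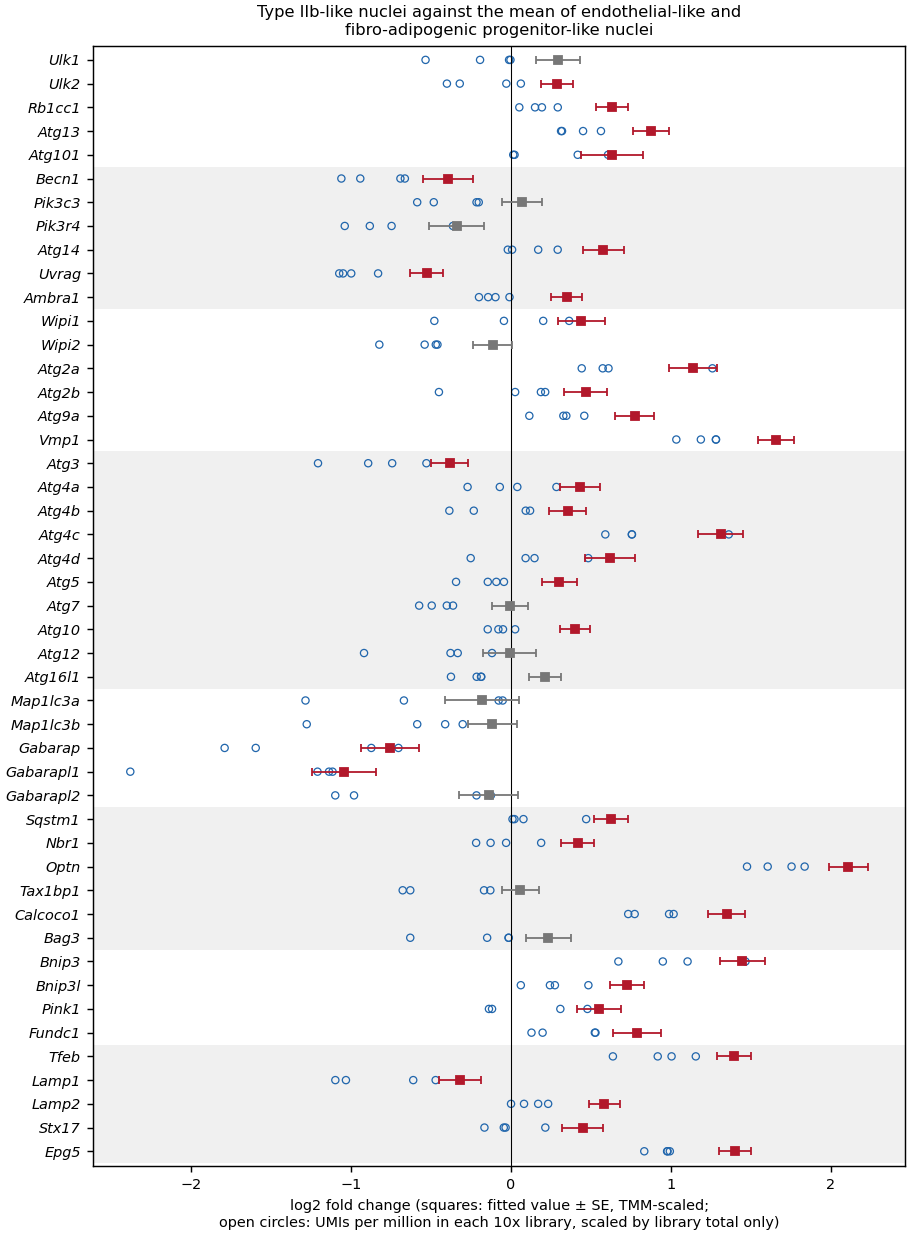
log2 fold change of each member in Type IIb-like nuclei against the mean of endothelial-like and fibro-adipogenic progenitor-like nuclei; squares are the TMM-scaled fit with its SE, red where called, and open circles are the 4 10x libraries scaled by their totals only. Circles lie to the left of most squares because the scalings differ, and Optn and Vmp1 lie to the right of 0 on both.

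Type IIa/IIx-like nuclei were compared with Type IIb-like nuclei in all 8 libraries, classes named for more oxidative and more glycolytic fast fibres. Mybpc1 and Kctd16 were among the leading genes of a 10x cluster of 3457 nuclei named Type IIb-like. They were also among those of a second-set cluster of 2184 nuclei named Type IIa/IIx-like. The names may therefore not cover the same fibres in the 10x and the second set. edgeR called 5 of 48 members higher, where 16.1% of all genes were, and 5 lower, where 15.8% were, and the median was -0.04 for the members and for all genes. Bag3 stood at 250.6, 167, 136 and 138 CPM in Type IIa/IIx-like nuclei of Old, Young, Running and Sedentary of the 10x set while Type IIb-like nuclei of these libraries had 76.4, 61.5, 49.7 and 58.4. The second set gave 183, 102, 116 and 118 beside 166, 72.5, 80.9 and 68.7. Bag3 was higher in Type IIa/IIx-like nuclei in all 8 libraries, with a log2 fold change of 1.07 (SE 0.13, adjusted p = 2.9e-06). Atg10 was likewise higher in every library, at 228 to 344 beside 82.8 to 186, with 0.90 (SE 0.08, adjusted p = 7.8e-08). Wipi1 had 0.67 (SE 0.10), with the opposite order in the second Old library (29.4 beside 96.6, in 274 and 67 nuclei). Gabarapl1 had 0.66 (SE 0.14), and the second Old library held 0 UMIs of it in its 67 Type IIb-like nuclei. Rb1cc1, the scaffold of the kinase complex, had 0.23 (SE 0.07).

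The members lower in Type IIa/IIx-like nuclei had smaller differences. Atg101 had a log2 fold change of -0.53 (SE 0.18, adjusted p = 0.031), Epg5 -0.47 (SE 0.08), the mitophagy receptor gene Fundc1 -0.45 (SE 0.13), Atg7 -0.34 (SE 0.10) and Vmp1 -0.27 (SE 0.07). Epg5 was lower in every library, at 96.9 to 106.5 beside 128 to 144 in the 10x set and at 46.3 to 66.5 beside 55.2 to 78.0 in the second. Atg101 lost its call in the 10x set alone, under DESeq2, with library totals only and without either Sedentary library, the first Old or the second Running library. Fundc1 lost its call without any 1 of the 10x libraries, Atg7 without the second Running library and Rb1cc1 without the first Young library. Without the second Old library 12 members were called, 7 higher and 5 lower. Without the filter on low counts 16 members were called, 4 higher and 12 lower. The shares of all genes called in these fits are not given here, so the counts have no background beside them. With library totals as the only scaling 8 were called higher, where 19.7% of all genes were, and 4 lower, where 12.1% were. In the second set the free Myh4 RNA given above was in both classes, and its part in these values was not tested.

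Macrophage-like nuclei were compared with the mean of endothelial-like and fibro-adipogenic progenitor-like nuclei in the 4 10x libraries. Atg101 and Map1lc3a were too low to be tested. Of the 46 members tested, edgeR called 11 higher, where 21.9% of all genes were, and 10 lower, where 24.3% were, with a median of 0.02 beside -0.06 for all genes. Uvrag stood at 559, 603, 464 and 486 CPM in macrophage-like nuclei of Old, Young, Running and Sedentary and between 208 and 292 in the other classes, with a log2 fold change of 1.005 (SE 0.10, adjusted p = 4.2e-07). Atg7 stood at 150.5, 145, 116 and 152 and between 43.2 and 92.0, with 0.98 (SE 0.12). Atg4c stood at 93.7, 102, 105 and 129 and between 28.8 and 57.0, with 1.07 (SE 0.14). None of these 3 overlapped between the classes. These members too were named for their large fold changes, and the share of all genes without overlap was not counted. Vmp1 followed with 0.80 (SE 0.11) and Lamp2 with 0.61 (SE 0.09), and Lamp1, the other major protein of the lysosomal membrane, with 0.49 (SE 0.13).

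The members lower in macrophage-like nuclei were led by Wipi1, at 20.6, 12.3, 20.4 and 22.3 beside 25.1 to 57.2, with a log2 fold change of -1.33 (SE 0.22, adjusted p = 8.8e-05). Gabarapl1 had -1.02 (SE 0.25), Bag3 -0.96 (SE 0.17), Pink1 -0.80 (SE 0.21) and Sqstm1 -0.65 (SE 0.14). Of the lysosome and fusion genes 3 of 5 were called higher and none lower, and of the cargo receptors 3 of 6 were called lower and none higher. The lipid kinase complex gave 2 higher and 0 lower of 6, and conjugation 3 and 0 of 10. Membrane supply gave 1 and 1 of 6, the kinase complex 1 and 1 of 4, and the ATG8 genes 0 and 2 of 4. Over all genes 21.9% were called higher and 24.3% lower. Bnip3l was called lower with -0.55 (SE 0.16) and Bnip3 with -0.53 (SE 0.20). Bnip3 lost its call with library totals only (adjusted p = 0.065), and Pink1 lost its call without the first Old library.

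Adipocyte-like nuclei were compared with fibro-adipogenic progenitor-like nuclei, the class that holds adipocyte precursors in muscle, in the 4 10x libraries. edgeR called 13 of 48 members higher, where 19.7% of all genes were, and 1 lower, where 19.6% were, with a median of 0.23 beside 0.00 for all genes. Bnip3 stood at 358, 387, 203 and 408 CPM in adipocyte-like nuclei of Old, Young, Running and Sedentary and at 30.7, 23.0, 21.6 and 16.4 in progenitor-like nuclei. Its log2 fold change of 3.82 (SE 0.25, adjusted p = 9.1e-05) was the largest of any member in the 4 contrasts between classes. Optn stood at 195, 138, 195 and 155 beside 33.7, 23.3, 32.4 and 26.3, with 2.59 (SE 0.13, adjusted p = 4.7e-05). The classes were far apart for both genes in every library. Both were named for their large fold changes, and the share of all genes as far apart was not counted. Map1lc3a stood at 44.7, 20.2, 11.2 and 22.5 beside 13.3, 14.8, 5.77 and 4.93, with 1.26 (SE 0.31). The receptor gene Calcoco1 had 1.08 (SE 0.15) and Atg12 0.88 (SE 0.19). Bag3 was the 1 member called lower, at 34.1 to 50.02 beside 47.6 to 75.9, with -0.53 (SE 0.13), and it lost its call under DESeq2 and without the first Old, Young or Running library. Map1lc3a lost its call without the first Old library. Without that library 6 members were called, all higher, and the share of all genes called in that fit is not given here.

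**Figure D5:**
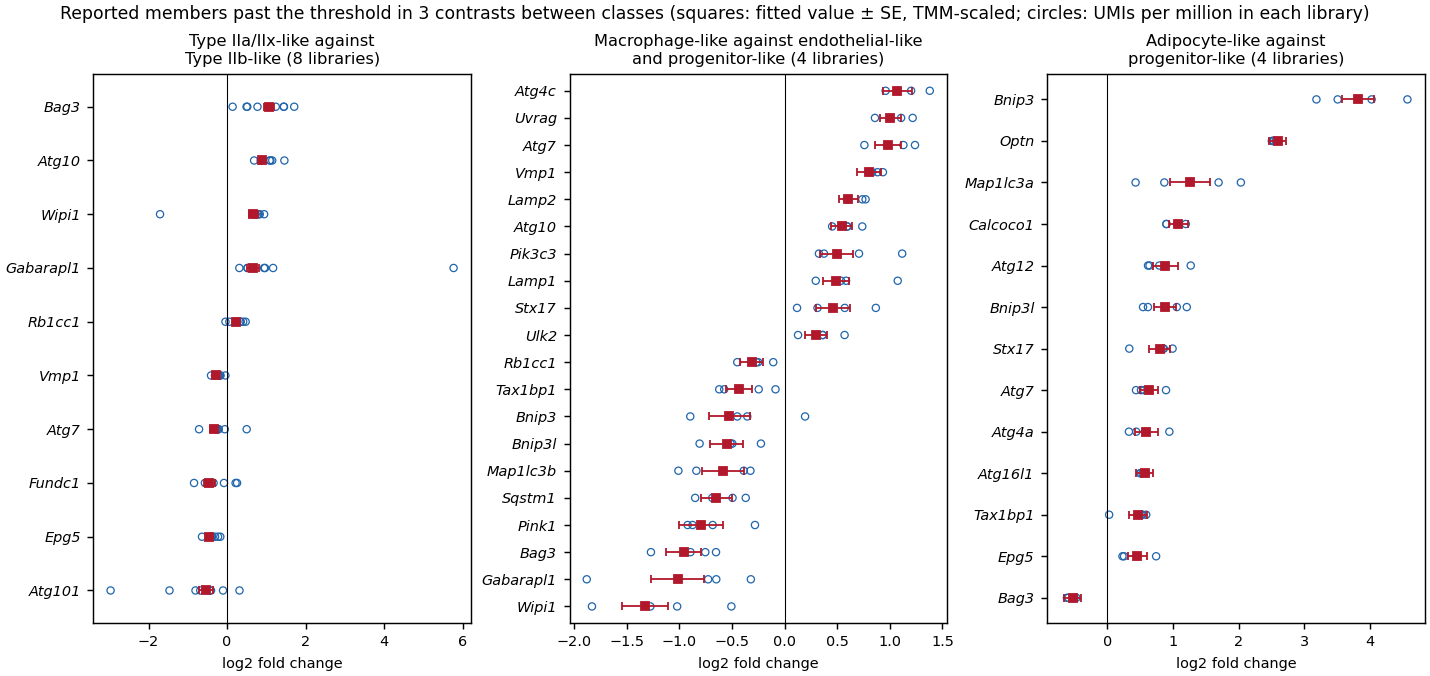
Reported members past the threshold in the other 3 contrasts between classes, as log2 fold change; squares are the TMM-scaled fit with its SE and circles are the single libraries in CPM. Bnip3 (3.82) and Optn (2.59) stand apart in adipocyte-like nuclei, and in the left panel the circle of Wipi1 from the second Old library lies on the other side of 0 from the rest.

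Another 71 genes of the same pathway were listed, of which 70 were measured. None of the 70 was called in Old against Young or in Running against Sedentary over all nuclei. In Type IIb-like nuclei 32 of 70 were called higher than in endothelial-like and progenitor-like nuclei, where 33.4% of all genes were, and 16 lower, where 36.5% were. The all-gene shares became 19.3% and 51.2% with library totals only, a scaling for which these genes were not counted. Those with the smallest p were Prkaa2, the energy-sensing kinase subunit of muscle, with a log2 fold change of 2.59 (SE 0.15), the ubiquitin ligase gene Trim63 with 2.75 (SE 0.16) and Retreg1, a receptor for endoplasmic reticulum, with 2.17 (SE 0.13). In Type IIa/IIx-like against Type IIb-like nuclei 15 of 69 were called higher, where 16.1% of all genes were, and 13 lower, where 15.8% were. The list of initiation genes gave 3 higher and 3 lower of 14, that of selective receptors 3 and 3 of 12, that of mitophagy 6 and 0 of 11, that of fusion 0 and 1 of 11 and that of the lysosome 3 and 6 of 21. Mfn1, which fuses mitochondria, had 0.94 (SE 0.08), the small heat shock protein gene Hspb8 -0.92 (SE 0.10) and Ccpg1 0.82 (SE 0.09). In macrophage-like nuclei 24 of 67 were called higher, where 21.9% of all genes were, and 7 lower, where 24.3% were. In the same order the lists gave 1 higher and 2 lower of 14, 3 and 2 of 11, 0 and 2 of 10, 7 and 0 of 11 and 13 and 1 of 21. Those with the smallest p were the protease gene Ctsb with 2.26 (SE 0.13), the hexosaminidase gene Hexa with 1.87 (SE 0.12) and Mitf, a relative of Tfeb, with 1.64 (SE 0.11). In adipocyte-like nuclei 11 of 68 were called higher, where 19.7% of all genes were, and 9 lower, where 19.6% were, shares near or below those of all genes. Those with the smallest p were Bcl2l13 with 1.79 (SE 0.14), Cd63 with -1.71 (SE 0.15) and Plekhm1 with 1.69 (SE 0.17).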

How the data were processed

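Single-nucleus RNA was measured in 8 libraries, 2 per group. The authors aligned the reads to mm10 and made the deposited count matrices (raw UMI counts per gene and nucleus) with Cell Ranger 6.1.2 for the 10x set, and with PISA for the second set; the file units are whole counts, not normalized. Nuclei with over 200 and under 6000 genes and under 6% mitochondrial counts were kept, as in the study. The 48 members and all other lists were chosen with earlier results of these data known.

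Each library set was clustered on its own (scanpy 1.11.5, 2000 variable genes, 30 components, Leiden resolution 1, doublets scored but kept) and clusters were named from marker lists. Naming limits were chosen with the clusters in view, and 3 of the 5 Type IIb-like clusters of the 10x set were named from the mean of their 7 markers with no single marker more than 1 log2 unit above the other nuclei. Counts were summed per library, or per library and class with at least 20 nuclei, and tested with edgeR 4.0.16 (quasi-likelihood, TMM scaling, filter on low counts, Benjamini-Hochberg at 0.05) over all genes. Group comparisons used all 8 libraries with library set as covariate (3 residual degrees of freedom). Contrasts between classes used the library as a block. The members' values were scaled (CPM) to the retained counts without mitochondrial and ribosomal protein genes. The scripts were tested on simulated data. Alternatives were DESeq2 1.42.0, other scalings, no filter, resolution 0.6, removal of the 6% of nuclei with the highest doublet scores, and each library left out. Library totals as the only scaling was an alternative chosen after seeing the data. Of the 48 members, 1 counts in every total but is not reported here by itself. Named were 12 set genes, up to 5 members per direction with the smallest p and the same direction in both sets (groups) or with the largest change among those called (classes), and up to 3 further pathway genes by the smallest p among those called. Gene lengths come from GENCODE vM21. The authors' annotation of cell types was not used here.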

Additional observations from a re-analysis of the deposited data

How the results depend on the processing

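The count of 0 members called in both group comparisons, over all nuclei and within classes, was the same under every alternative that was run. For Old against Young the median log2 fold change of the members ran from -1.04 to -0.025 when single libraries were left out, and was -0.061 with library totals as the only scaling, an alternative chosen after seeing the data. It was -0.22 with nuclei of named classes and -0.075 with the same weight for each class. For Running against Sedentary it ran from -0.13 to 0.39 when single libraries were left out, and was 0.12 with RLE scaling (37 higher, 11 lower), 0.13 with DESeq2, 0.18 with only the 4 libraries of the comparison and 0.043 with nuclei of named classes. In Type IIb-like nuclei the median was 0.69 without the filter and -0.040 with library totals only. In Type IIa/IIx-like nuclei 16 members were called and the median was -0.20 without the filter. In adipocyte-like nuclei the median was 0.068 without the filter, and 6 to 14 members were called when single libraries were left out. The shares of all genes called are not given for these counts. None of the called members that the rule names changed sign under an alternative. Some other members called higher in Type IIb-like nuclei had values below 0 with library totals only, such as Ulk2 with 0.29 and then -0.18, and none of these was called lower there. Replicate numbers mark the library system, so the library set term serves as the replicate block. Without that block 0 members were called in either comparison, with medians of -0.40 and 0.11. With 1 library per group and system, library and animal cannot be told apart, and the second Old library has the fewest named nuclei.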
